A study of Homo sapiens with 4 samples.

Results

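The constitutive proteasome genes were taken as every array gene whose symbol begins with PSMA to PSMG followed by a number, together with POMP. PSMB8, PSMB9, PSMB10, PSME1 and PSME2, which interferon induces, were kept apart as a comparison. Of 19102 named genes on the array, 48 met this rule, through 65 probes. The proteins of 44 of these genes build, assemble or regulate the proteasome, and 59 probes measured them. The other 4 genes, PSMC3IP, PSME3IP1, PSMA3-AS1 and PSMG3-AS1, match the rule by symbol, were not counted among these 44 and are given on their own.

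The proteasome is the large protease that destroys proteins marked with ubiquitin. Its barrel-shaped core particle is a stack of rings, in which alpha subunits form the gate and beta subunits carry the proteolytic sites, and a regulatory particle on the barrel recognizes, unfolds and feeds in the substrate. The regulatory particle consists of a base with ring-forming ATPases and a lid that removes the ubiquitin. Under interferon, PSMB8, PSMB9 and PSMB10 take the places of the catalytic PSMB5, PSMB6 and PSMB7, and PSME1 and PSME2 form a different cap. Constitutive subunits are expressed in nearly all cells, and the transcription factor NFE2L1 raises them together when the proteasome is blocked.

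PC3, an androgen-independent line from a bone metastasis of a prostate carcinoma, had been infected for 48 h with lentivirus that carried either an ALKBH3 shRNA or a control shRNA, which the methods describe as directed against GFP. ALKBH3 is a demethylase that repairs alkylated bases in single-stranded DNA. Cells of all groups had been selected with puromycin, and RNA was taken after 48 h or 96 h of selection. Each of the 4 combinations was measured on 1 single-colour Agilent array, so the 2 selection times are the only repeats of each shRNA, and the labels name neither the ALKBH3 shRNA construct nor separate cultures. Both arrays of a selection time lay on 1 slide. All p-values measure only the spread between these arrays, which may be technical, and having only 4 arrays limits their precision. Where the shRNAs are compared without selection time as a block, this spread includes the change between the selection times and their slides. The SEs and intervals of that fit include it too.

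Signals below are log2 intensities relative to the 75th percentile of the array, and every difference is on the log2 scale. ALKBH3 itself had a signal of -0.74 and -0.89 on the control arrays at 48 h and 96 h and of -2.48 and -2.41 on the ALKBH3 shRNA arrays. The groups did not overlap, and ALKBH3 was lower by -1.63 ± 0.12 (limma SE, n = 2 arrays per shRNA), with a limma adjusted p = 0.253 and, with selection time as a block, 0.0265. Among markers, KRT8, KRT18, KRT19, EPCAM and VIM were well above background on all 4 arrays, whereas KLK3 was on none. EPCAM was higher by 0.98 with ALKBH3 shRNA (limma adjusted p = 0.0265 with the block, 0.418 without). PTPRC, PECAM1 and COL1A1, which mark blood, endothelial and stromal cells, passed the filter with signals between -4.81 and -0.26. The part of these markers in the values below was not tested.

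Tested genes had a probe that exceeded the background clearly on both arrays of either shRNA and had a value on all 4. Of the 44 proteasome genes, 41 were tested, and each was well above background on 4 of 4 arrays. PSMA8 and PSMB11, the core subunits of testis and thymus, were not well above background on any array. PSMG1, a chaperone of the alpha ring, lost its only spot on the control array at 48 h to a quality flag and had signals of 3.83 with ALKBH3 shRNA at 48 h, 3.70 with control at 96 h and 3.97 with ALKBH3 shRNA at 96 h. The median signal of the tested member probes was 2.93, against -0.68 over all 14556 genes tested, so the members were measured with bright probes.

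Promoter sequences show which regulatory letters the members carry. RefSeq windows (GRCh38.p14) from 250 bases before to 50 bases after the start were given for 38 of the 44 proteasome genes and for all 5 inducible genes, with none for PSMB6 and PSMB7. Both strands were searched for 3 motifs, each counted on its own even where matches share bases. The antioxidant response element, the site of NFE2L1 and its relatives, was written as TGACNNNGC and matched in 12 of 38 proteasome genes (31.6%), against 17.9% of 15843 protein-coding genes with a window and 3 of 5 inducible genes (60%). The ETS motif CCGGAAG matched in 16 of 38 (42.1%), against 16.5% of protein-coding genes, and in 0 of 5 inducible genes. The interferon-stimulated response element, searched as GAAANNGAAA, matched in 3 of 38 (7.89%), PSMA4, PSMB4 and PSMG4, against 4.16% of protein-coding genes and 4 of 5 inducible genes. These matches are letters in a window and not bound sites.

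The 200 bases before the start are printed below, from 5′ to 3′ on the gene's strand, for 5 genes that stand for these patterns, with motif matches in capitals. PSMB5, the constitutive chymotrypsin-like subunit, has no match (1 of its 2 windows is shown). PSMB10, an inducible counterpart, holds the interferon element just before the start. PSMB4, a constitutive core subunit, holds letters of the same pattern. PSMD12, a lid subunit, has the antioxidant and ETS letters, and PSMF1, the proteasome inhibitor, has the ETS letters in this window, 1 of 2.
PSMB5, chr14:23035221-23035420, minus strand: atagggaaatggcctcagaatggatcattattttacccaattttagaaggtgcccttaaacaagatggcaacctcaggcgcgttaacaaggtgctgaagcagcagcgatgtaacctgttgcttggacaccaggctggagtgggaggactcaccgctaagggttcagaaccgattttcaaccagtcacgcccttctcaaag
PSMB10, chr16:67936851-67937050, minus strand: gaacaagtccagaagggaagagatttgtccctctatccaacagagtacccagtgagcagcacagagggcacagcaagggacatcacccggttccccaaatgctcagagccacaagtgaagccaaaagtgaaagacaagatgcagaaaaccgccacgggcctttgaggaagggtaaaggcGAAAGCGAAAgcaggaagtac
PSMB4, chr1:151399373-151399572, plus strand: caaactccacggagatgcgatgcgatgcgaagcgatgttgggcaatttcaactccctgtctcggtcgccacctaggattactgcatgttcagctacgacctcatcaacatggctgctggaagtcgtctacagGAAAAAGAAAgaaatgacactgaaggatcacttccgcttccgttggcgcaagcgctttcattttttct
PSMD12, chr17:67366578-67366777, minus strand: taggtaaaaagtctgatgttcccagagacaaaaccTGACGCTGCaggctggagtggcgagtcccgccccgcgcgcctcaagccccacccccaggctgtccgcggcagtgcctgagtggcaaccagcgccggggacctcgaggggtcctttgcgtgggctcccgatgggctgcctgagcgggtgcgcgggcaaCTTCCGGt
PSMF1, chr20:1118402-1118601, plus strand: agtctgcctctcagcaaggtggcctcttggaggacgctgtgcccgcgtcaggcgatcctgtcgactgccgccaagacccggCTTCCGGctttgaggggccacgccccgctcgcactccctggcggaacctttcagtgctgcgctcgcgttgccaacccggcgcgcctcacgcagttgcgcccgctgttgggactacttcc

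With ALKBH3 knocked down, the constitutive proteasome genes stayed close to the control level as a group. Over the 41 tested members the median log2 difference of ALKBH3 shRNA minus control shRNA was 0.0051 (quartiles -0.037 and 0.041), and single members lay between -0.22 (PSME4) and 0.26 (PSMA5). Over all 14556 genes the median was -0.0030 with quartiles of -0.12 and 0.13. The members were thus spread less than genes at large, with a median absolute difference of 0.041 against 0.124. The part of their bright probes in this narrow spread was not tested.

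**Figure D1:**
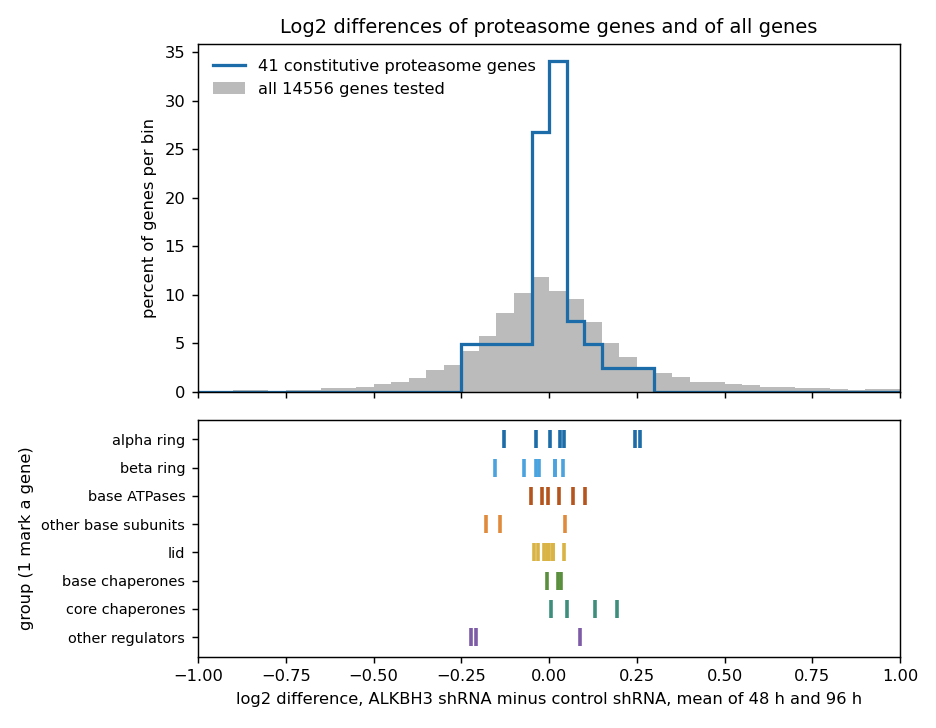
Histogram of log2 differences, ALKBH3 shRNA minus control shRNA, for all 14556 genes tested (grey bars) and the 41 constitutive proteasome genes (blue outline), in percent of genes per bin, with each member drawn as a mark by group below. The members lie between -0.22 and 0.26, while 241 genes at large fall outside the plotted range.

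By limma, 0 of 41 members had an adjusted p below 0.05, as had 0 of 14556 genes (0%). At an unadjusted p below 0.05, 0 members passed, against 8.33% of all genes. A change of at least 2-fold with an unadjusted p below 0.05, the cutoff of the study, was met by 0 members, where 1.04% of all genes were higher and 0.234% lower. With selection time as a block, 0 members passed the adjusted p (4.46% of all genes did). At an unadjusted p below 0.05 the block gave 3 members, PSMA5, PSMA6 and PSMF1, against 25.1% of all genes. Of the members, 9 were higher with ALKBH3 shRNA at both times (34.6% of all genes) and 9 were lower at both (35.6%). The other 23 of 41 changed sign between the times, a larger share than the 4339 of all 14556 genes that did.

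A missed threshold does not show equal expression, so the intervals are given as well. The limma 95% interval of the difference lay within 2-fold in either direction for 41 of 41 members (86.7% of all genes) and within 1.5-fold for 40 (56.3%). It lay within 1.3-fold for 20 members (12.98%). PSMA5 had the highest upper bound, at 1.61-fold above control, and PSME4 the lowest lower bound, at 1.48-fold below. With selection time as a block, 41 intervals lay within 1.5-fold (83.0% of all genes) and 34 within 1.3-fold (54.1%).

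**Figure D2:**
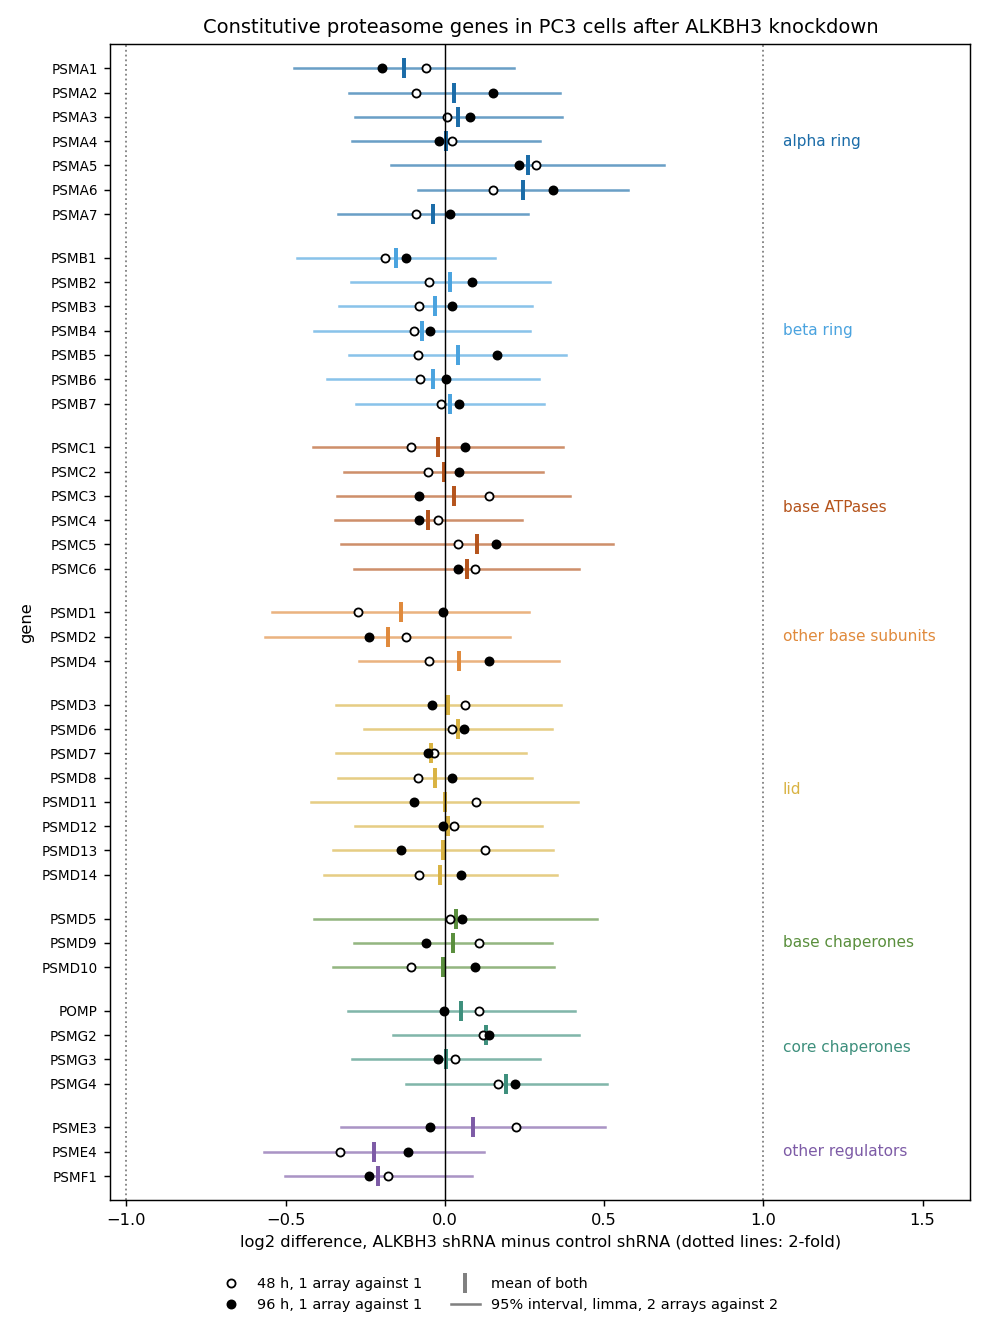
Log2 difference of ALKBH3 shRNA minus control shRNA for the 41 tested members by group, at 48 h (open circles) and 96 h (filled circles), with the mean (vertical bar) and its limma 95% interval (line, n = 2 arrays per shRNA). All intervals lie inside the dotted 2-fold lines, and those of PSMA5 and PSME4 reach farthest up and down.

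In the alpha ring, which gates the core, 7 members were tested and their median difference was 0.030. PSMA5 had signals of 3.43 and 3.71 on the control arrays at 48 h and 96 h and of 3.72 and 3.94 on the ALKBH3 shRNA arrays. It was higher at both times, and the highest control value lay just under the lowest value with ALKBH3 shRNA. Its difference of 0.26 ± 0.16 (limma SE, n = 2) had an adjusted p = 0.790 in limma, and 0.141 with the block. PSMA6 had control signals of 5.16 and 5.14 and ALKBH3 shRNA signals of 5.31 and 5.48, again without overlap. Its difference was 0.25 ± 0.12, with a limma adjusted p = 0.717, and 0.190 with the block. The share of all genes without overlap between the shRNAs was not counted, here or for the genes below. At the other end PSMA1 stood at -0.13 ± 0.13, so the ring's subunits did not share a direction.

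The beta ring holds the proteolytic sites, and its 7 tested members had a median of -0.029. By their brightest probes 0 were higher and 2 lower at both times (34.6% and 35.6% of all genes). PSMB5, the chymotrypsin-like subunit and the main target of bortezomib, had control signals of 4.92 and 4.73 and ALKBH3 shRNA signals of 4.83 and 4.89. The groups overlapped, and its difference of 0.041 ± 0.13 was the highest of the ring. PSMB6, the caspase-like subunit, had 4.37 and 4.21 with control and 4.29 and 4.21 with ALKBH3 shRNA. PSMB7, the trypsin-like subunit, had 4.26 and 4.25 against 4.25 and 4.29. All of these differences were within 1 SE of 0. PSMB1, a subunit without a proteolytic site of its own, was the lowest, with 5.21 and 5.10 against 5.02 and 4.98, which do not overlap. Its difference was -0.15 ± 0.12 (limma adjusted p = 0.846). A second, dimmer probe of PSMB1 gave -0.032, with -0.13 at 48 h and 0.065 at 96 h.

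The 6 base ATPases, which unfold the substrate, had a median difference of 0.012. They ran from -0.052 ± 0.11 for PSMC4 to 0.10 ± 0.16 for PSMC5. Among the other base subunits, PSMD2, a scaffold protein that docks ubiquitin receptors, had signals of 6.07 and 6.32 with control and 5.95 and 6.08 with ALKBH3 shRNA. Its difference was -0.18 ± 0.14 (limma adjusted p = 0.867), but a second probe of the gene gave 0.058. PSMD4, a ubiquitin receptor, had 4.14 and 4.04 against 4.09 and 4.17, which overlap. PSMD1, the other scaffold, was lower at 48 h by -0.27 and differed by -0.0069 at 96 h.

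The 8 lid members had a median of -0.0034 and ran from -0.043 ± 0.11 (PSMD7) to 0.041 ± 0.11 (PSMD6). Between the times 6 of 8 changed sign, against 4339 of all 14556 genes. PSMD14, the enzyme that cuts ubiquitin chains off the substrate, had signals of 3.58 and 3.68 with control and 3.50 and 3.73 with ALKBH3 shRNA, so the groups overlapped. PSMD6 and PSMD7 were printed 10 times on each array, and the SD of these spots was between 0.045 and 0.119.

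Assembly of the particles needs dedicated chaperones. The base chaperones PSMD5, PSMD9 and PSMD10 had differences between -0.0051 (PSMD10) and 0.034 (PSMD5) by their brightest probes. Dimmer second probes gave -0.20 for PSMD9 and -0.11 for PSMD10, and the median of these 3 genes, 0.025, became -0.059 with the mean over probes. The core chaperones had a median of 0.091 over 4 tested genes. PSMG4 was the highest of them, with 2.30 and 2.36 with control and 2.47 and 2.58 with ALKBH3 shRNA, which do not overlap. Its difference was 0.19 ± 0.12 (limma adjusted p = 0.785), and a second probe gave 0.029. POMP, the maturation factor that brings the beta ring together, had -1.99 and -1.78 with control and -1.88 and -1.79 with ALKBH3 shRNA, and PSMG3 was the lowest at 0.0051.

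The remaining regulators bind the core in place of, or beside, the regulatory particle. PSMF1, an inhibitor of the core, had signals of 1.42 and 1.46 with control and 1.24 and 1.22 with ALKBH3 shRNA. It was lower at both times without overlap, by -0.21 ± 0.11, with a limma adjusted p = 0.738 and 0.198 with the block. All 4 probes of PSMF1 gave a lower value, from -0.31 to -0.21, though they measure the same RNA extracts. PSME4, an activator linked to histone degradation, had 0.41 and 0.20 against 0.077 and 0.080, also without overlap. Its difference was -0.22 ± 0.13 (limma adjusted p = 0.764). PSME3, a nuclear activator, was higher by 0.22 at 48 h and lower by -0.046 at 96 h.

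Several probes measured 12 of the 41 tested proteasome genes. For 10 of these genes all probes gave a difference of the same sign, and the exceptions were PSMD2 and PSMD9. The median range between probes of 1 gene was 0.093, and the largest was 0.238 (PSMD2). The median absolute difference of the members between shRNAs, 0.041, was smaller than that median range.

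The inducible genes showed larger differences, mostly at 48 h. PSMB8, the counterpart of PSMB5, had signals of 0.57 with control and 1.77 with ALKBH3 shRNA at 48 h, and of 0.23 and 0.66 at 96 h. It was higher with ALKBH3 shRNA by 1.20 and 0.42, and its mean difference of 0.81 ± 0.40 had a limma adjusted p = 0.709, and 0.106 with the block. That difference was 0.26 without the ALKBH3 shRNA array at 48 h and 1.37 without the one at 96 h. PSMB9, the counterpart of PSMB6, had 0.35 with control and 1.46 with ALKBH3 shRNA at 48 h, a difference of 1.10. At 96 h PSMB9 had -0.019 and -0.18, so the difference of -0.16 had the opposite sign. The control arrays and the ALKBH3 shRNA arrays overlapped for PSMB9, and leaving out the ALKBH3 shRNA array at 48 h turned its overall difference of 0.47 to -0.35.

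The remaining inducible genes showed smaller differences. PSMB10, the counterpart of PSMB7, was at 0.21 and -0.017 at the 2 times. PSME1 was at 0.22 and 0.035, and PSME2 at 0.27 and -0.065. At 48 h all 5 inducible genes were higher with ALKBH3 shRNA, each from 1 array against 1. The catalytic constitutive subunits PSMB5, PSMB6 and PSMB7 were at -0.084, -0.077 and -0.012. The median at 48 h was -0.023 over the 41 constitutive members and -0.0095 over all genes. Some constitutive members were as high at 48 h as PSMB10, PSME1 and PSME2, such as PSMA5 at 0.29 and PSME3 at 0.22. Without the ALKBH3 shRNA array at 48 h, PSME1 and PSME2 stood at -0.10 and -0.13.

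The inducible minus the constitutive member of each catalytic pair gives the difference between the sets directly. For PSMB8 and PSMB5, the shRNA difference of the inducible member was larger by 1.28 at 48 h and 0.26 at 96 h (exact permutation test over arrays, two-sided p = 0.333). For PSMB9 and PSMB6 it was larger by 1.18 at 48 h and smaller at 96 h, at -0.16 (exact permutation p = 1). For PSMB10 and PSMB7 the values were 0.22 and -0.062 (exact permutation p = 1). With 2 arrays per shRNA 0.333 is the smallest p this test allows, and the test does not use the pairing by selection time, so these p-values say nothing on whether the sets differed.

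**Figure D3:**
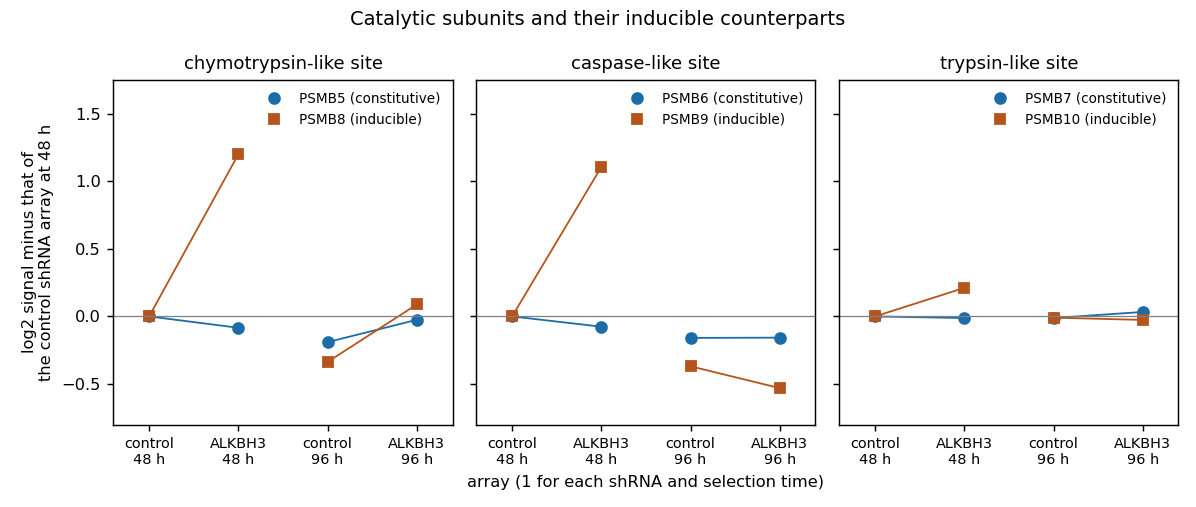
Log2 signal of each catalytic constitutive subunit (blue circles) and its inducible counterpart (brown squares) on the 4 arrays, each relative to its own value on the control shRNA array at 48 h, with lines joining the arrays of 1 selection time. PSMB8 and PSMB9 stand at 1.20 and 1.10 with ALKBH3 shRNA at 48 h, while PSMB5, PSMB6 and PSMB7 stay within 0.19 of the control array.

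Genes that work with the proteasome were read in the same way, from lists with a known role. Of 7 tested factors that bind the particle (8 listed), 3 were higher and 3 lower at both times (34.6% and 35.6% of all genes). Their median was 0.0069. They ran from UBE3C, a ligase that extends ubiquitin chains, at -0.33 ± 0.11 (limma adjusted p = 0.572) to PAAF1, a base chaperone, at 0.19 ± 0.13. With the mean over its probes UBE3C stood at -0.15 ± 0.11 (limma adjusted p = 0.861). The 6 shuttle factors, which carry ubiquitinated proteins to the particle, had a median of -0.045. UBQLN4, a carrier with a ubiquitin-like domain, was the highest at 0.14.

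For NFE2L1 and its partners, which drive proteasome genes, 5 of 6 genes were tested and the median was -0.075, from MAFK at -0.22 to NFE2L1 at 0.077. The probe of NFE2L2 was not well above background. The 7 genes of p97, the ATPase that extracts proteins for degradation, and its cofactors had a median of -0.16. Lower at both times were 5 of 7, against 35.6% of all genes. VCP, which encodes p97, was the lowest of them, with control signals of 4.57 and 4.57 and ALKBH3 shRNA signals of 4.33 and 4.42 (limma adjusted p = 0.760), and FAF1 was the highest at 0.074.

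Selection time was compared over both shRNAs. The median change from 48 h to 96 h was 0.046 over the 41 members and -0.0061 over all genes, and 0 members had a limma adjusted p below 0.05 (0% of all genes did). At an unadjusted p below 0.05, 1 member passed, PSMD5, against 18.4% of all genes. With shRNA as a block, 0 members and 12.8% of all genes passed the adjusted p. Higher at 96 h with both shRNAs were 18 members (37.0% of all genes had this), and lower with both were 8 (39.2%). Slide and selection time cannot be told apart in these arrays.

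The medians of the groups had different signs. Of the 6 base ATPases, 5 were higher at 96 h with both shRNAs and 0 lower (37.0% and 39.2% of all genes). Their median change was 0.15, led by PSMC5 at 0.24 ± 0.10. The rise was not particular to them. The other base subunits had a median of 0.18 and the base chaperones 0.11, each with 2 of 3 higher with both shRNAs and 0 lower. The base chaperone median became -0.052 with the mean over probes. The beta ring had a median of -0.065, with 0 of 7 higher and 3 lower with both shRNAs (37.0% and 39.2% of all genes). PSMB4, which sits in that ring, had signals of 5.49 and 5.39 at 48 h and of 5.32 and 5.28 at 96 h for control and ALKBH3 shRNA. Leaving out the control array at 48 h moved the ring's median to 0.0051, while the ATPase median lay between 0.11 and 0.19 in every setting tried.

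By its brightest probe PSMD5, a base chaperone, went from -0.62 and -0.60 at 48 h to -0.37 and -0.32 at 96 h with control and ALKBH3 shRNA. Its change of 0.27 ± 0.088 did not overlap between the times and had a limma adjusted p = 0.243, and 0.0896 with shRNA as a block. A second, dimmer probe of PSMD5 gave a change of 0.069, and the mean over both gave 0.17. All 5 inducible genes were lower at 96 h with both shRNAs, with a median change of -0.37. PSMB9 was lower by -0.37 with control and by -1.64 with ALKBH3 shRNA, and PSMB8 by -0.34 and -1.11.

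**Figure D4:**
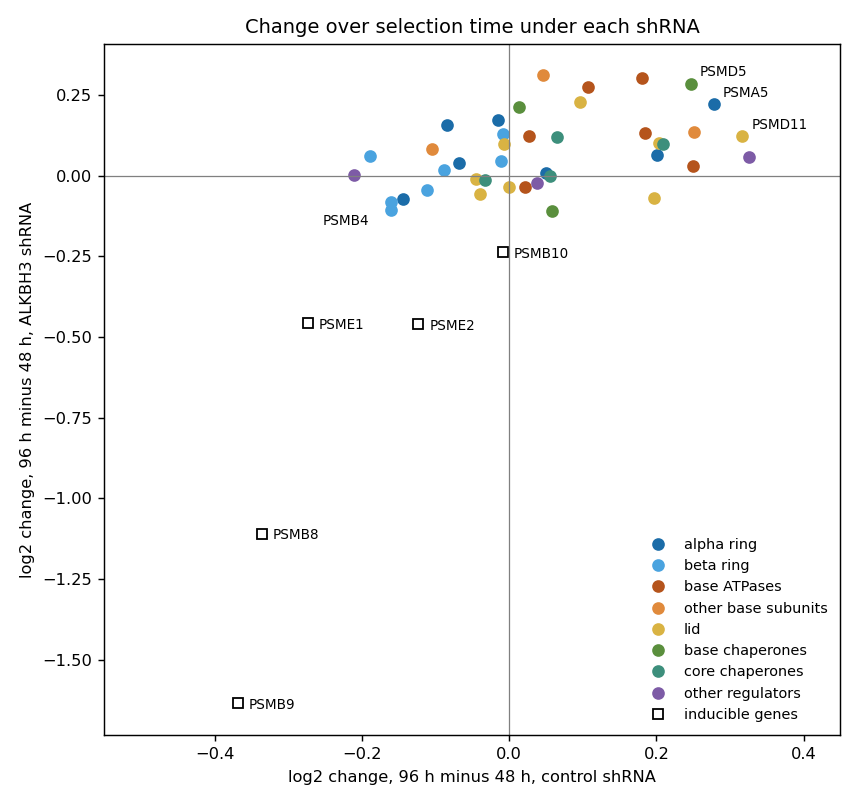
Log2 change from 48 h to 96 h under control shRNA (horizontal axis) and ALKBH3 shRNA (vertical axis), 1 point a gene, coloured by group, with the 5 inducible genes as open squares. The axes have different scales. The 41 constitutive members stay within 0.33 of no change on both axes, and the inducible genes lie below 0 on both.

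The 4 genes set apart from the proteasome genes at the start were all tested. PSMC3IP, a recombination factor named after its binding to PSMC3, differed by -0.0019 between the shRNAs. Over selection time PSMC3IP moved more than any of the 41 constitutive members tested, with -1.04 and -0.95 at 48 h and -0.23 and -0.33 at 96 h. Its change of 0.72 ± 0.098 had a limma adjusted p = 0.131 and, with shRNA as a block, 0.0262. PSME3IP1, PSMA3-AS1 and PSMG3-AS1 differed between the shRNAs by -0.11, -0.10 and -0.18 (limma adjusted p between 0.824 and 0.947), and the antisense genes are measured by probes against their own accessions. A second, dimmer probe of PSME3IP1 gave 0.063 and was higher with ALKBH3 shRNA at both times.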

How the data were processed

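The authors deposited, for each array, spot intensities made by Agilent Feature Extraction (version 10.7.3.1 in the file headers) with background subtraction on that array and no normalization between arrays. They also deposited a table of log2 values normalized between arrays, used here as an alternative; its column medians were 7.52 to 7.54, and its correlation with the scanner values was 0.989 to 0.992.

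Per array, 43118 of 44495 spots were not controls, 180 to 379 flagged spots were removed, 0 were saturated, and the 75th percentile of intensity was 2150 to 2394. Spots of a probe were averaged, and a probe counted as well above background where at least 0.5 of its spots were, as were 67.0% to 70.9% of probes. The spot tables carry accessions and no symbols, so genes were named through the RefSeq table of GRCh38.p14 (24910 of 34127 probes), and the brightest tested probe of a gene was used. R 4.3.3 with limma 3.58.1 (lmFit, eBayes, Benjamini-Hochberg over all 14556 genes) gave the tests. The fits were tested on simulated data.

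Selection time pairs the arrays by the labels, and the deviations of the arrays of a time from their shRNA means correlated at 0.703 over genes, so the block is given where it changes a call. The members, the lists and the alternatives were chosen with earlier results of these data known. Named genes were ALKBH3, the catalytic subunits, the highest and lowest member of each group, POMP, PSMD4, PSMD14, PSMF1, members past a call rule with or without the block, and the inducible genes. For the change over selection time, and for PSMD1, PSMB4, PSMG2 and the genes outside the proteasome, names were chosen after their values were seen, apart from the lists' highest and lowest genes. Some genes of the lists and markers are not reported here.

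The alternatives were normexp background correction (offset 50) without and with quantile normalization, quantile normalization, median centring, the authors' values, a percentile taken over probes clearly above background everywhere, no filter or one requiring 4 arrays, averaging a gene's probes, testing probes rather than genes, the block, the methods' unpaired Student test, a 1.5-fold cutoff, and leaving out each array. Since the spot tables hold the median and not the mean of a spot's pixels, normexp used the median.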

Additional observations from a re-analysis of the deposited data

Results flagged for a closer look

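Among the tested proteasome genes and the lists read beside them, the inducible PSMB9 was the only gene with shRNA differences of opposite sign at the selection times that were each larger than the median absolute difference of all genes at that time. ALKBH3 shRNA minus control was 1.10 at 48 h and -0.16 at 96 h, each from 1 array against 1. The difference between the times was not tested.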

How the results depend on the processing

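The count of 0 members past limma's adjusted p, and of 0 past the 2-fold cutoff, was the same in every alternative tried. The count at an unadjusted p below 0.05, 0 of 41, became 2 with normexp background correction, without or with quantile normalization (PSMA5 and PSMA6), 1 with the authors' values (PSMA5), 3 with selection time as a replicate block, and 2 with the methods' unpaired Student test (PSMF1 and PSMG2). That test gave 0 members after Benjamini-Hochberg adjustment and 0 at 2-fold. The median difference of the members, 0.0051, ranged from -0.020 to 0.039 when 1 array was left out, the highest without the ALKBH3 shRNA array at 48 h. For selection time, the count of 1 at an unadjusted p below 0.05 became 0 with normexp without or with quantile normalization, with the authors' values, with the mean over probes and without any 1 array. With no filter on dim probes the 1 call was PSMB11 in place of PSMD5. The count became 2 with probes in place of genes, through a second probe of PSMD10 at -0.41, and 3 with shRNA as a block (PSMD5, PSMA5 and PSMC5), and the member median became 0.092 with median centring, where all genes moved to 0.040. With 1 array left out, PSME3 ranged from -0.075 (without control at 48 h) to 0.25, PSMB9 from -0.35 to 1.29, PSME1 from -0.10 to 0.36 and PSME2 from -0.13 to 0.33, the last 3 lowest without ALKBH3 shRNA at 48 h. PSMA5 lay between 0.12 and 0.40, PSMA6 between 0.16 and 0.36 and PSMF1 between -0.26 and -0.16 over 16 alternatives. Of 480 values of single genes for the shRNAs, 35 had another sign than the value reported. The causes of these shifts were not tested. With 2 arrays per shRNA and 1 at each time, smaller differences than the intervals given cannot be resolved.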
